A study of Homo sapiens with 6 samples.

Results

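The DNA excision, mismatch and break repair genes are 46 genes of the human genome that were taken by name from a table of 60670 genes. No measured value served as a criterion, but earlier results of these data were known when the genes were chosen. Expression was measured by RNA sequencing in the established human cell line Ishikawa, which comes from an endometrial adenocarcinoma. One group of 3 libraries came from cells treated with 5 µM penfluridol, an antipsychotic that blocks dopamine receptors, and the other group of 3 from cells treated with DMSO, its solvent. The labels name no genetic change in either group, and all 6 libraries come from 1 cell line. How long the cells were exposed is not stated in the labels. Nothing says that the libraries of a group came from separate cultures, so p-values measure only how far these libraries differ, and that spread may be technical. Values are TPM, a relative abundance within a library that is scaled for transcript length. The depth of the libraries is unknown, because TPM keeps no read counts.

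Cells remove damaged bases by base excision repair, in which a glycosylase cuts out the base, an endonuclease opens the abasic site, and a polymerase and a ligase close the gap. Mismatch repair corrects replication errors, and nucleotide excision repair cuts out bulky lesions such as those left by ultraviolet light. Breaks of both strands are joined by end joining, which the Ku heterodimer starts, or repaired from the sister chromatid by homologous recombination, which acts in S and G2 phase. The ATM and ATR kinases signal breaks and stalled replication forks to the checkpoint kinases.

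The libraries were not equally alike before any gene was tested. DMSO 3 correlated at 0.955, 0.955 and 0.945 with penfluridol 1, 2 and 3, and at 0.956 and 0.930 with DMSO 1 and 2 (Pearson's r of log2(TPM + 1) across genes, which are not independent replicates). The libraries also differed along transcript GC content. In the 3028 genes with the lowest GC content, which was 28.7 to 45.2%, the median deviation from the gene's mean was -0.55, -0.35 and -0.06 in penfluridol 1, 2 and 3, against 0.37, 0.85 and -0.30 in DMSO 1, 2 and 3 (log2 scale). DMSO 3 thus lay on the side of the penfluridol libraries in these genes. In the 3028 genes with the highest GC content the median deviation was 0.17, 0.16 and 0.19 in penfluridol 1, 2 and 3, against -0.16, -0.30 and -0.06 in DMSO 1, 2 and 3, where DMSO 3 lay on the side of the other DMSO libraries. Results that rest on DMSO 3 are therefore also given without it, and those of the called genes after a correction that removed each library's trend with GC content and transcript length. Epithelial and endometrial markers summed to 2641 to 3022 TPM with penfluridol and 3940 to 4947 TPM with DMSO, all 8 reaching 1 TPM. Most of these sums came from the keratin genes KRT8, KRT18 and KRT19, which were lower in every penfluridol library than in any DMSO library. The list did not fall as a class, since SOX17 was higher in every penfluridol library and the groups overlapped in EPCAM, CDH1, MUC1 and PAX8. The 6 stromal markers summed to at most 4.50 TPM, with DCN, LUM and PDGFRB at 0 in every library, and the 3 endothelial markers to at most 0.88 TPM. The 4 immune markers summed to 4.56 to 4.88 TPM with penfluridol and 0.77 to 1.48 TPM with DMSO. CD3E was at 0 throughout, and CD68, also a lysosomal protein, averaged 4.62 TPM with penfluridol and 0.723 TPM with DMSO. The part of these markers in the results was not tested.

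Both Ku genes, the glycosylase gene UNG and the abasic endonuclease gene APEX1 fell with penfluridol, and ERCC1, which encodes a nuclease subunit of nucleotide excision repair, rose. These 5 were the members that passed the test. It was a linear model on log2(TPM + 1) in limma, run on the 12201 genes whose mean reached 1 TPM, and a call is an adjusted p under 0.05 after Benjamini-Hochberg adjustment over all of them. Of the 46 members 36 were tested, and 10 lay below the mean of 1 TPM. Of the 36, 1 was called higher (2.78%) and 4 were called lower (11.1%), where the whole table had 9.75% called higher and 3.48% called lower, 1190 and 425 genes. With median-of-ratios scaling the whole table had 993 called higher and 718 called lower. The median log2 fold change of the 36 was -0.38, against -0.04 over all genes tested. In bulk RNA, fewer cells in a state that expresses a gene and less RNA per cell cannot be told apart.

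**Figure D1:**
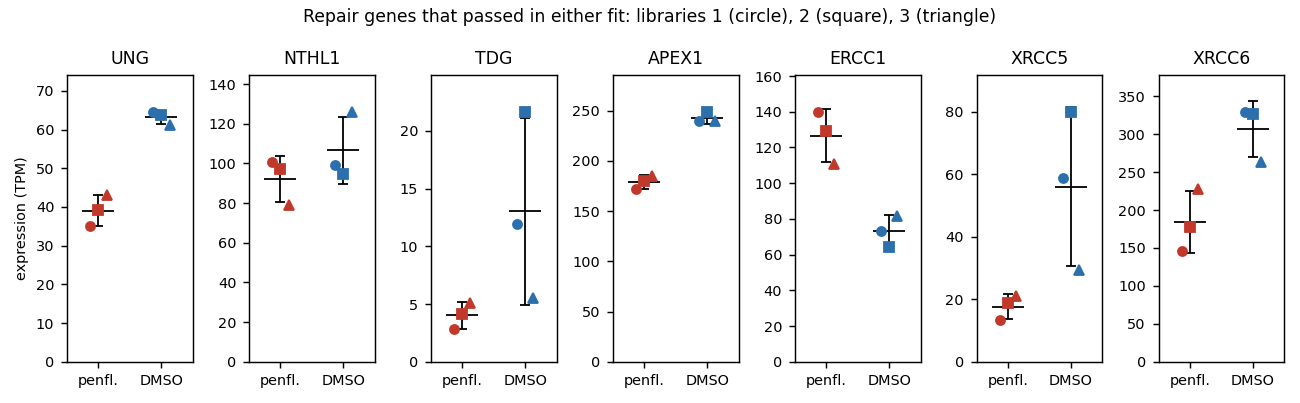
Expression in TPM (y axis, from 0) of the 7 members called as deposited or on the corrected values, in penfluridol (left) and DMSO (right) libraries; points are libraries, the line is the mean and the bar the SD (n = 3 per group). UNG, TDG, APEX1, XRCC5 and XRCC6 are lower in every penfluridol library than in any DMSO library, ERCC1 is higher in every one, and NTHL1 overlaps.

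The coding starts of the 5 genes are shown to let a reader see their base composition, since the fold changes of the members varied with transcript GC content, as described further on. They are the first 120 bases of the longest complete coding sequence in GENCODE release 29 (GRCh38), 5′ to 3′ on the coding strand, with G and C in capitals.
ERCC1: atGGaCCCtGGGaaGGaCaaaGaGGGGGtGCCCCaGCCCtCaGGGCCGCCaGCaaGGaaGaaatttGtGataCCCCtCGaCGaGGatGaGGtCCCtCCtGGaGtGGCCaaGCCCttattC
UNG: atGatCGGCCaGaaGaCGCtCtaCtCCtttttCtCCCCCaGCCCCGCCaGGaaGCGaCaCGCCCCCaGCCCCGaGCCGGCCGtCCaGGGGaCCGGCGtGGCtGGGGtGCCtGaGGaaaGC
APEX1: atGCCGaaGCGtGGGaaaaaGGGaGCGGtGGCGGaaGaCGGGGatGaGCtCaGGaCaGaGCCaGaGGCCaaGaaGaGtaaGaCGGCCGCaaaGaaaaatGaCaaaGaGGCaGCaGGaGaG
XRCC6: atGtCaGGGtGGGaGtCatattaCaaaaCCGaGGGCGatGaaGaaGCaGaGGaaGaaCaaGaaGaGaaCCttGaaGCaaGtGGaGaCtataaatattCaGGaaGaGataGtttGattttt
XRCC5: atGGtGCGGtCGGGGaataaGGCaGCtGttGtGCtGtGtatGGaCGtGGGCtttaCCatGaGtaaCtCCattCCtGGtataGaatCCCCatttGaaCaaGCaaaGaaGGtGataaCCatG
Of the 120 bases shown, G and C made up 72 in ERCC1, 83 in UNG, 68 in APEX1, 48 in XRCC6 and 57 in XRCC5, so that these short stretches do not order the genes as their fold changes do. The whole coding sequences had a GC content of 58.3% in ERCC1, 55.6% in UNG, 52.7% in APEX1, 47.8% in XRCC6 and 42.6% in XRCC5. They do not give the order of the fold changes either, since UNG fell more than APEX1. Over the annotated transcripts of each gene the median GC content was 58.8% in ERCC1, 50.7% in UNG, 53.6% in APEX1, 49.3% in XRCC6 and 43.5% in XRCC5. By this last measure the 5 genes stood in the order of their fold changes, which was not tested.

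Base excision repair begins with the glycosylases, whose 9 members were all tested. UNG encodes uracil-DNA glycosylase and lies on chr12:109097574-109110992, on the plus strand (GRCh38, GENCODE 29). It stood at 35.0, 39.2 and 43.0 TPM in penfluridol 1, 2 and 3, against 64.5, 63.7 and 61.3 TPM in DMSO 1, 2 and 3. All 3 penfluridol libraries lay below all 3 DMSO libraries. The mean was 39.1 ± 4.0 TPM with penfluridol and 63.2 ± 1.70 TPM with DMSO (SD, n = 3 each), a log2 fold change of -0.68 (SE 0.12, limma adjusted p = 0.0150). The change was -0.70 after the GC and length correction (adjusted p = 0.00772) and -0.71 without DMSO 3 (0.0142), but the call was lost without penfluridol 1 (0.0575), penfluridol 2 (0.0939) or DMSO 1 (0.0827).

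The other glycosylases did not pass as deposited. TDG, thymine-DNA glycosylase, was at 2.82, 4.14 and 5.12 TPM in penfluridol 1, 2 and 3, against 11.96, 21.6 and 5.50 TPM in DMSO 1, 2 and 3. Its groups did not overlap, but DMSO 3 lay next to the penfluridol libraries. The log2 fold change of TDG was -1.33 (SE 0.45, limma adjusted p = 0.0915). It was called lower once GC content and length were corrected (-0.83, adjusted p = 0.0487) and without DMSO 3 (-1.80, adjusted p = 0.0138). NTHL1, which removes oxidised pyrimidines, was at 101, 97.4 and 79.1 TPM in penfluridol 1, 2 and 3, against 99.1, 94.7 and 126 TPM in DMSO 1, 2 and 3. The groups overlapped (log2 fold change -0.20, adjusted p = 0.383). NTHL1 is one of the GC-rich members, and on the corrected values it was called lower (-0.54, SE 0.12, adjusted p = 0.0231). Its exons share 402 bases with TSC2 on the opposite strand, and no label says whether the authors' counting used strand.

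MPG, which removes alkylated purines, had the highest level of the glycosylases, at 226, 189 and 149 TPM in penfluridol 1, 2 and 3, against 133, 109 and 171 TPM in DMSO 1, 2 and 3. Penfluridol 3 lay below DMSO 3, so that the groups overlapped (log2 fold change 0.45, limma adjusted p = 0.177). After the GC and length correction the log2 fold change of MPG was 0.13 (limma adjusted p = 0.624). SMUG1, a second uracil glycosylase, averaged 94.3 ± 10.3 TPM with penfluridol and 89.0 ± 9.29 TPM with DMSO. The groups overlapped in the other glycosylases too. NEIL2, which removes oxidised bases, averaged 22.9 ± 2.38 TPM with penfluridol and 22.6 ± 2.32 TPM with DMSO. MUTYH, which removes adenine opposite oxidised guanine, averaged 15.7 ± 0.439 TPM with penfluridol and 14.4 ± 1.35 TPM with DMSO. OGG1, the oxidised guanine glycosylase, averaged 12.4 ± 0.819 TPM with penfluridol and 12.4 ± 1.23 TPM with DMSO, and NEIL1 3.46 ± 0.281 TPM with penfluridol and 3.05 ± 1.07 TPM with DMSO. Adjusted p-values of these 5 genes were 0.569 to 0.995. UNG was thus the glycosylase that fell as deposited, and UNG, TDG and NTHL1 the 3 that fell after the correction, where the whole table had 8.97% called lower and 10.2% called higher.

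APEX1, the main endonuclease that opens abasic sites, lies on chr14:20455191-20457772, on the plus strand. It was at 172, 180 and 185 TPM in penfluridol 1, 2 and 3, against 239, 249 and 239 TPM in DMSO 1, 2 and 3. The groups did not overlap and each was narrow, at 179 ± 6.67 TPM with penfluridol and 242 ± 5.38 TPM with DMSO (SD, n = 3 each). The log2 fold change was -0.44 (SE 0.09, limma adjusted p = 0.0258), and it was -0.57 after the GC and length correction (adjusted p = 0.00708). The call was lost with median-of-ratios scaling (adjusted p = 0.0924) and when any library but DMSO 3 was left out (0.0515 to 0.135, with 0.0200 without DMSO 3). APEX1 shares 54 exon bases with PIP4P1 on the opposite strand. APEX2, its paralog with weak abasic endonuclease activity, averaged 23.9 ± 0.980 TPM with penfluridol and 20.9 ± 2.14 TPM with DMSO (log2 fold change 0.19, adjusted p = 0.343), and the difference between the paralogs' changes was not tested.

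The later steps of base excision and single-strand break repair did not pass. POLB, the gap-filling polymerase, reached 11.06 TPM in penfluridol 3 and 11.08 TPM in DMSO 3, the closest values of its groups, with means of 8.36 ± 2.38 TPM with penfluridol and 17 ± 5.63 TPM with DMSO (log2 fold change -0.92, limma adjusted p = 0.0812). POLB was called lower without DMSO 3 (-1.18, adjusted p = 0.0202) and with median-of-ratios scaling (adjusted p = 0.0363), but stood at -0.35 on the corrected log2 values (adjusted p = 0.120). XRCC1, the scaffold that holds the gap-filling enzymes, was higher in every penfluridol library, at 31.4 ± 4.10 TPM with penfluridol and 23.2 ± 0.327 TPM with DMSO (log2 fold change 0.42, adjusted p = 0.0889). On the corrected values the log2 fold change of XRCC1 was 0.14 (limma adjusted p = 0.373). Its partner LIG3, a DNA ligase, averaged 9.37 ± 2.61 TPM with penfluridol and 6.86 ± 0.698 TPM with DMSO. PARP1, the main sensor of strand breaks, averaged 43.6 ± 11.4 TPM with penfluridol and 61.4 ± 17.5 TPM with DMSO (adjusted p = 0.253), and PARP2 averaged 9.38 ± 2.30 TPM with penfluridol and 13.2 ± 5.61 TPM with DMSO. APTX, which removes abortive ligation products, averaged 24.1 ± 2.62 TPM with penfluridol and 23.1 ± 2.56 TPM with DMSO. LIG3, PARP2 and APTX had adjusted p-values of 0.284 to 0.797.

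Mismatch repair genes were at low levels, and 4 of 6 members were tested, none of which passed in limma, with 1 at an unadjusted p under 0.05. MSH6, which with its partner recognises base mismatches, was at 2.01, 2.69 and 3.44 TPM in penfluridol 1, 2 and 3, against 5.10, 7.78 and 2.73 TPM in DMSO 1, 2 and 3. DMSO 3 lay within the penfluridol range (log2 fold change -0.67, limma adjusted p = 0.212, or 0.0391 without DMSO 3). EXO1, the exonuclease that removes the mismatched strand, was at 1.27, 1.63 and 1.87 TPM in penfluridol 1, 2 and 3, against 3.83, 5.16 and 1.98 TPM in DMSO 1, 2 and 3. Its groups were separated by the narrow step between penfluridol 3 and DMSO 3 (log2 fold change -0.79, adjusted p = 0.127, or 0.0210 without DMSO 3). Of the MutL homologs, PMS1 averaged 1.10 ± 0.125 TPM with penfluridol and 2.35 ± 1.25 TPM with DMSO, and PMS2 2.63 ± 0.895 TPM with penfluridol and 3.55 ± 1.58 TPM with DMSO. After the GC and length correction the 4 had log2 fold changes of -0.44 to 0.10, and none was called. MSH3, which recognises small loops, and MLH3 were below the limit for testing. MSH3 averaged 0.103 ± 0.0839 TPM with penfluridol and 0.553 ± 0.446 TPM with DMSO, and MLH3 0.587 ± 0.432 TPM with penfluridol and 1.0 ± 0.275 TPM with DMSO.

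Nucleotide excision repair held the member that rose. ERCC1, which with the XPF protein cuts the damaged strand on its 5′ side, lies on chr19:45407333-45478828, on the minus strand. It was at 140, 129 and 111 TPM in penfluridol 1, 2 and 3, against 73.5, 64.3 and 81.8 TPM in DMSO 1, 2 and 3. All 3 penfluridol libraries lay above all 3 DMSO libraries. The mean was 127 ± 14.6 TPM with penfluridol and 73.2 ± 8.75 TPM with DMSO (SD, n = 3 each), a log2 fold change of 0.78 (SE 0.14, limma adjusted p = 0.0156). It was 0.52 after the GC and length correction (adjusted p = 0.0302) and 0.87 without DMSO 3 (0.0107), but the call was lost with median-of-ratios scaling (0.0614) and without penfluridol 1 (0.0646), penfluridol 2 (0.0976) or DMSO 1 (0.0778). ERCC1 shares 1593 exon bases with CD3EAP on the opposite strand, so that its value is uncertain if the counting ignored strand. CD3EAP itself averaged 7.95 TPM with penfluridol and 7.39 TPM with DMSO. ERCC4, which encodes XPF and was named after its values were seen, was not tested, at 0.267 ± 0.0814 TPM with penfluridol and 0.857 ± 0.494 TPM with DMSO.

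The damage-recognition genes did not pass. DDB1, a subunit of the complex that binds ultraviolet lesions, had the highest level in its group of genes, at 128, 139 and 155 TPM in penfluridol 1, 2 and 3, against 122, 115 and 124 TPM in DMSO 1, 2 and 3. The groups did not overlap, but the step was small (log2 fold change 0.22, limma adjusted p = 0.214). DDB2, its partner and a p53 target, was lower in every penfluridol library, at 35.2 ± 1.00 TPM with penfluridol and 39.9 ± 3.18 TPM with DMSO (log2 fold change -0.17, adjusted p = 0.331). XPC, which detects helix distortion, averaged 6.23 ± 1.69 TPM with penfluridol and 5.76 ± 2.05 TPM with DMSO, and XPA, which verifies the lesion, averaged 2.32 ± 0.311 TPM with penfluridol and 3.47 ± 1.47 TPM with DMSO. Their adjusted p-values were 0.800 and 0.399.

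End joining is started by the Ku heterodimer, which threads onto broken ends and recruits the kinase DNA-PKcs. XRCC6, which encodes Ku70, lies on chr22:41621119-41664048, on the plus strand, and had the highest mean of the 46 members over all 6 libraries, although MPG averaged more with penfluridol. It was at 146, 177 and 227 TPM in penfluridol 1, 2 and 3, against 329, 327 and 264 TPM in DMSO 1, 2 and 3. The groups did not overlap, with means of 184 ± 40.9 TPM with penfluridol and 307 ± 37.1 TPM with DMSO (SD, n = 3 each). The log2 fold change was -0.75 (SE 0.18, limma adjusted p = 0.0377), and on the corrected values it was -0.67 (adjusted p = 0.00529). Pseudogenes of XRCC6 were listed at no more than 0.140 TPM in any library.

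XRCC5, which encodes Ku80, lies on chr2:216107464-216206303, on the plus strand. It was at 13.2, 18.7 and 21.0 TPM in penfluridol 1, 2 and 3, against 58.6, 79.9 and 29.3 TPM in DMSO 1, 2 and 3. Every penfluridol library lay below every DMSO library, and DMSO 3 was the lowest of its group. The log2 fold change was -1.52 (SE 0.36, limma adjusted p = 0.0363), the largest decrease among the members tested, and it was -0.99 after the GC and length correction (adjusted p = 0.00564). The calls of both genes depended on single libraries. That of XRCC5 held without DMSO 3 (-1.92, adjusted p = 0.00714) and was lost without any other library (0.0796 to 0.146), and that of XRCC6 held without DMSO 3 (0.0212) or penfluridol 3 (0.0342) and was lost without the others (0.109 to 0.149). Both calls were also lost without a filter on low TPM, where more genes are tested (0.0973 for XRCC5 and 0.0932 for XRCC6). The ratio of XRCC5 to XRCC6 TPM was 0.0903, 0.106 and 0.0924 in penfluridol 1, 2 and 3, against 0.178, 0.244 and 0.111 in DMSO 1, 2 and 3. This ratio was computed after the values were seen and not tested. PRKDC, the catalytic subunit of DNA-PK, averaged 3.87 ± 0.976 TPM with penfluridol and 8.06 ± 4.28 TPM with DMSO (log2 fold change -0.81, adjusted p = 0.169, or 0.0385 without DMSO 3). After the GC and length correction the log2 fold change of PRKDC was -0.40 (limma adjusted p = 0.159).

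The members that act in homologous recombination were mostly close to or under the limit for testing, though RAD51C and XRCC3 lay well above it. None of the 3 tested passed in limma, with 1 at an unadjusted p under 0.05. RAD51C, which acts in strand exchange, was at 20.3, 17.3 and 26.9 TPM in penfluridol 1, 2 and 3, against 35.5, 44.7 and 21.1 TPM in DMSO 1, 2 and 3. DMSO 3 lay inside the penfluridol range (log2 fold change -0.59, limma adjusted p = 0.199, or 0.0275 without DMSO 3). BRCA1, which promotes resection and recombination, was at 0.840, 1.14 and 1.14 TPM in penfluridol 1, 2 and 3, against 2.59, 2.44 and 1.47 TPM in DMSO 1, 2 and 3. Its groups did not overlap (log2 fold change -0.62, adjusted p = 0.131, or 0.0315 without DMSO 3). After the GC and length correction the log2 fold changes of RAD51C and BRCA1 were -0.03 and -0.05 (adjusted p = 0.876 and 0.899). XRCC3, the partner of RAD51C in a complex, was higher in every penfluridol library, at 24.4 ± 1.56 TPM with penfluridol and 19.8 ± 2.46 TPM with DMSO. Its log2 fold change was 0.29 as deposited (limma adjusted p = 0.201) and -0.01 after the correction (0.950).

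The checkpoint kinases CHEK1 and CHEK2 and the Fanconi pair FANCD2 and FANCI, which is clamped onto crosslinked DNA, did not pass in limma, with 0 at an unadjusted p under 0.05. CHEK2 was at 14.0, 21.7 and 28.8 TPM in penfluridol 1, 2 and 3, against 36.1, 38.8 and 19.0 TPM in DMSO 1, 2 and 3. FANCI was at 2.41, 6.02 and 4.91 TPM in penfluridol 1, 2 and 3, against 8.41, 11.8 and 3.92 TPM in DMSO 1, 2 and 3. In both genes DMSO 3 lay within the penfluridol range. CHEK1 averaged 6.14 ± 2.22 TPM with penfluridol and 8.79 ± 3.30 TPM with DMSO, and FANCD2 averaged 3.32 ± 0.517 TPM with penfluridol and 6.03 ± 4.24 TPM with DMSO. The 4 genes had log2 fold changes of -0.69 to -0.44 as deposited (limma adjusted p = 0.279 to 0.407) and of -0.16 to 0.11 after the GC and length correction. Without DMSO 3 the log2 fold changes were -0.74 for CHEK1, -0.83 for CHEK2, -0.96 for FANCD2 and -1.07 for FANCI, and the unadjusted p-values were all under 0.05, with adjusted p of 0.0968 for CHEK1, 0.0691 for CHEK2, 0.0645 for FANCD2 and 0.0610 for FANCI.

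The 10 members under a mean of 1 TPM were the MRN complex genes MRE11, RAD50 and NBN, which sense and trim broken ends, the kinases ATM and ATR, the recombination genes BRCA2, PALB2 and XRCC2, and MSH3 and MLH3. Together they summed to 1.62, 1.98 and 3.23 TPM in penfluridol 1, 2 and 3, against 5.67, 12.4 and 3.65 TPM in DMSO 1, 2 and 3. Their median GC content was 39.6% (38.2% in ATR), against 51.8% over the genes tested. The GC and length correction did not cover these 10 genes, and the part of GC content in their values was not tested. MRE11, the highest of the MRN genes by the mean over all 6 libraries though not in DMSO libraries alone, was at 0.540, 0.240 and 0.410 TPM in penfluridol 1, 2 and 3, against 0.560, 0.940 and 0.260 TPM in DMSO 1, 2 and 3. RAD50 averaged 0.167 ± 0.125 TPM with penfluridol and 0.563 ± 0.448 TPM with DMSO, and NBN 0.110 ± 0.0173 TPM with penfluridol and 0.660 ± 0.560 TPM with DMSO. BRCA2, which acts in strand exchange, averaged 0.0733 ± 0.0929 TPM with penfluridol and 0.473 ± 0.535 TPM with DMSO. PALB2, its partner, averaged 0.297 ± 0.157 TPM with penfluridol and 0.930 ± 0.603 TPM with DMSO, XRCC2, another recombination gene, 0.280 ± 0.130 TPM with penfluridol and 0.677 ± 0.350 TPM with DMSO, and ATM 0.210 ± 0.0900 TPM with penfluridol and 1.18 ± 1.14 TPM with DMSO. ATR was at 0.0100, 0.0600 and 0.0900 TPM in penfluridol 1, 2 and 3, against 0.590, 0.740 and 0.480 TPM in DMSO 1, 2 and 3, with no overlap. In a fit with no filter on low values, ATR was called lower (limma adjusted p = 0.0267), together with UNG and APEX1, while ERCC1 was called higher. In that fit 3 of 46 members were called lower (6.52%) and 1 higher (2.17%), where all 26597 genes had 0.729% called lower and 3.02% called higher. These shares come from unlike sets, since 36 of the 46 members but only 12201 of the 26597 genes reached a mean of 1 TPM.

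**Figure D2:**
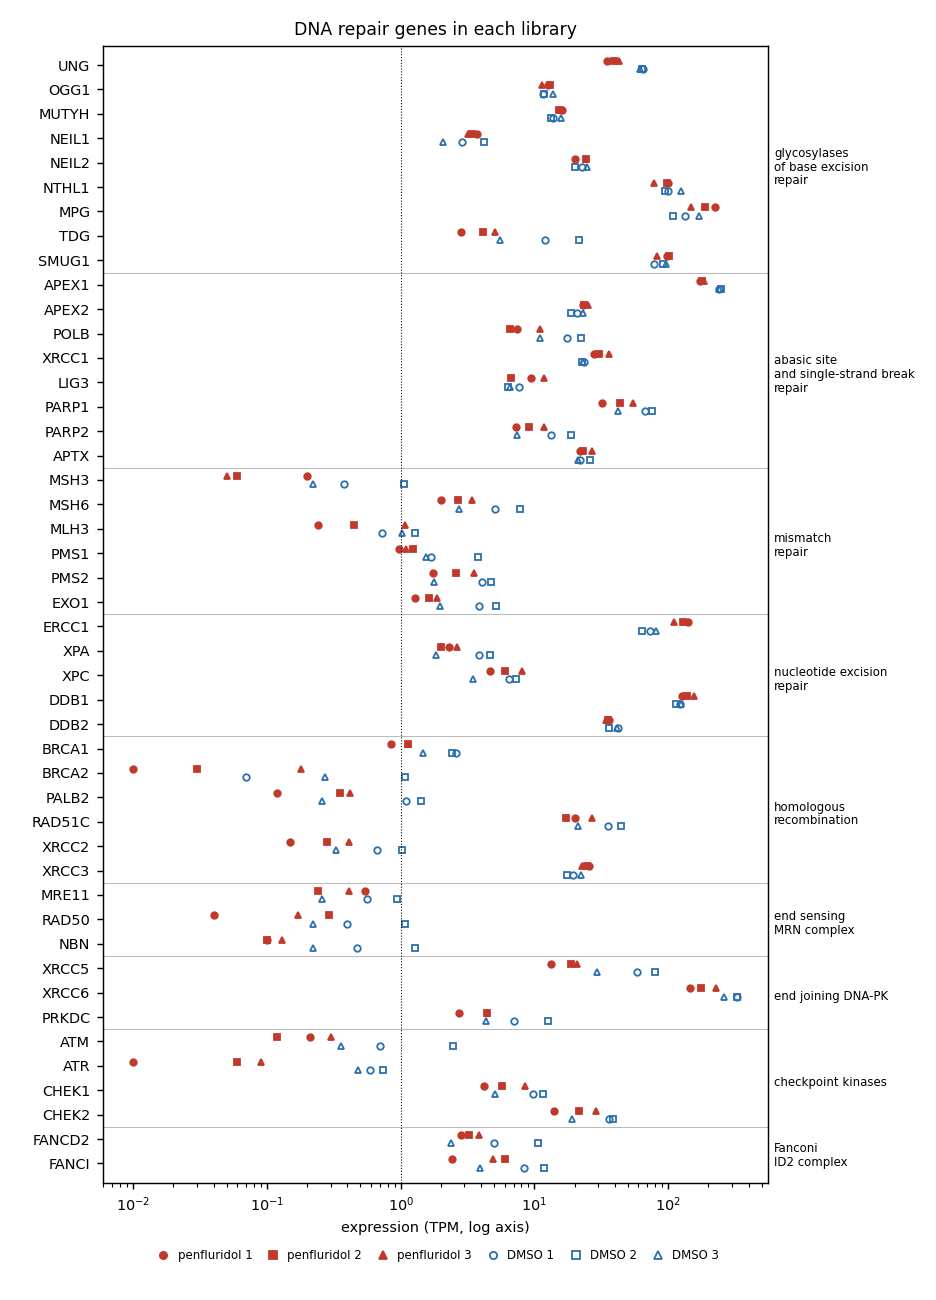
Expression in TPM (log x axis) of the 46 repair genes in each library, with penfluridol filled and above DMSO, open, in each row; rows are grouped by role, and the dotted line marks 1 TPM. Triangles, the third libraries, show DMSO 3 among or next to the penfluridol points in many low-expressed genes, and XRCC6 has the highest mean over all 6 libraries.

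The members' fold changes followed GC content, as did those of all genes tested. The tested genes with a GC content were put into 4 equal bins by it. The 11 members in the bin of lowest GC content all had negative log2 fold changes, with a median of -0.62, and all genes of that bin had a median of -0.63. In the second bin 8 of 11 members were negative and their median was -0.48, below the -0.19 of all genes of that bin, and in the third 2 of 6 were negative with a median of 0.05, against 0.17 over all genes. In the bin of highest GC content 6 of 8 members were positive, with a median of 0.23, against 0.34 over all genes of the bin, where 23.1% of all genes were called higher. Across the 36 members tested, GC content and log2 fold change had a Spearman's rho of 0.76 and a Pearson's r of 0.74 as a description, against 0.60 and 0.52 across the 12112 genes tested that have a GC content. The genes share the 6 libraries and their composition, so they are not independent points. Median transcript length had a rho of 0.02 over the same members.

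**Figure D3:**
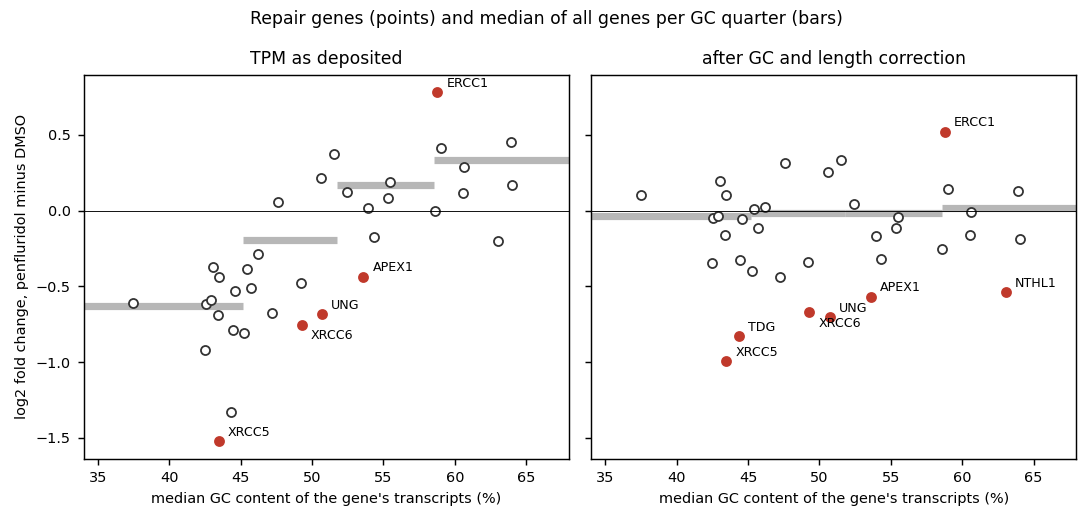
Log2 fold change (penfluridol minus DMSO, y axis) against the median GC content of a gene's transcripts (x axis) for the 36 members tested, as deposited (left) and after the GC and length correction (right). Filled points passed the test, and grey bars are the median of all genes in each of 4 bins of GC content, cut at the plot's edges. On the left the members follow the bars upward, with a rho of 0.76, and on the right UNG, APEX1, XRCC5, XRCC6, TDG and NTHL1 lie below them and ERCC1 above.

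After the correction, 1 of 36 members was called higher (2.78%) and 6 were called lower (16.7%), beside 10.2% and 8.97% of all genes, and the members' median log2 fold change was -0.11, against -0.01 for all genes. The 5 genes called as deposited were among the 7. Without DMSO 3, 1 member was called higher (2.78%) and 11 were called lower (30.6%), beside 13.9% and 18.5% of all genes, and the members' median was -0.64. The 11 were UNG, TDG, APEX1, POLB, MSH6, EXO1, BRCA1, RAD51C, XRCC5, XRCC6 and PRKDC. Counted by overlap alone, 10 of 36 members (27.8%) were lower in all 3 penfluridol libraries than in any DMSO library and 5 (13.9%) were higher, beside 13.6% and 23.3% of all genes tested. The part of GC-related library differences in these counts cannot be told apart from treatment by the design, since the GC shift also ran between the groups.

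**Figure D4:**
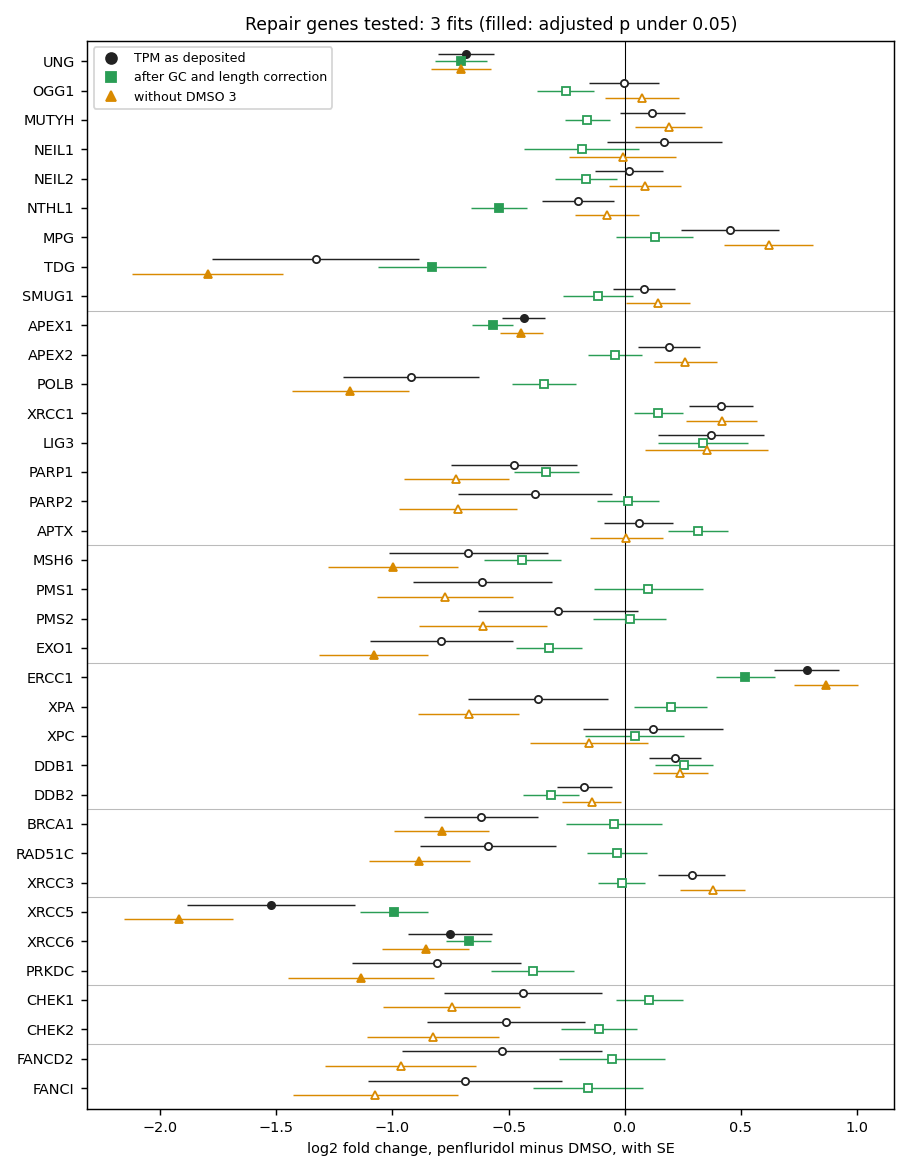
Log2 fold change (penfluridol minus DMSO, x axis, with moderated SE) of the 36 members tested, ordered by role, as deposited (circles), after the GC and length correction (squares) and without DMSO 3 (triangles); filled symbols passed the test. UNG, APEX1, ERCC1, XRCC5 and XRCC6 are filled in all 3 fits, and the mismatch, recombination, checkpoint and Fanconi genes lie closer to 0 after the correction, such as RAD51C at -0.59 as deposited and -0.03 corrected.

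The wider repair pathway was read from 8 lists that hold 140 further genes, 113 of them tested. Of these 11 rose (9.73%) and 6 fell (5.31%), with a median log2 fold change of -0.32, beside 9.75% and 3.48% of all genes and their median of -0.04. After the GC and length correction 15 of the 113 were higher and 11 lower (13.3% and 9.73%, beside 10.2% and 8.97% of all genes). Their median log2 fold change was then -0.07, against -0.01 for all genes. The counts as deposited depended on single libraries. Without DMSO 3, 17 of the 113 were higher and 28 lower (15.0% and 24.8%, beside 13.9% and 18.5% of all genes), without penfluridol 2 they were 4 and 0, without penfluridol 1 or DMSO 1 they were 6 and 0, without penfluridol 3 they were 7 and 1, and without DMSO 2 they were 8 and 4. In other base excision genes 1 of 11 fell, HMGB1, a chromatin protein that also binds repair intermediates, at 138 ± 39.2 TPM with penfluridol and 542 ± 257 TPM with DMSO (log2 fold change -1.88, limma adjusted p = 0.0254). HMGB1 has many processed copies in the genome, so its value is uncertain. The glycosylase gene NEIL3 missed the threshold (-1.06, adjusted p = 0.0693). In other nucleotide excision genes 1 of 19 rose and 2 fell. CETN2, a partner of XPC, fell to 17.4 ± 1.09 TPM with penfluridol, against 45.1 ± 13.2 TPM with DMSO (log2 fold change -1.29, limma adjusted p = 0.0147), and RBX1, a subunit of the ubiquitin ligase that holds DDB1, fell by 0.93 on the log2 scale (adjusted p = 0.0274, or 0.0593 on the corrected values). In other recombination genes 2 of 20 rose and 1 fell. The nuclease subunit MUS81 rose to 48.3 ± 3.16 TPM with penfluridol, against 22.1 ± 1.75 TPM with DMSO (log2 fold change 1.09, adjusted p = 0.00377), the topoisomerase TOP3A rose by 0.83 (adjusted p = 0.0420), and RPA3, a subunit of the single-strand binding protein RPA, fell to 86.2 ± 6.12 TPM with penfluridol, against 165 ± 36.7 TPM with DMSO (-0.91, adjusted p = 0.0177).

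None of 9 other end joining genes and none of 13 other Fanconi genes passed in limma, with 1 higher and 2 lower in the first list and 2 higher and 2 lower in the second at an unadjusted p under 0.05. The smallest adjusted p-values were 0.0539 for POLL, a gap-filling polymerase, and 0.123 for XRCC4, the partner of ligase IV, in the first list. In the second they were 0.0684 for UBE2T, the ubiquitin-conjugating enzyme of the pathway, and 0.0757 for FAAP100, a subunit of its core complex. All 4 were below 0.05 without DMSO 3 (0.00575 to 0.0216), and none was on the corrected values, at 0.185 for POLL, 0.143 for XRCC4, 0.647 for UBE2T and 0.278 for FAAP100. Of 15 other checkpoint genes 1 rose, the phosphatase gene CDC25B (log2 fold change 0.58, adjusted p = 0.0427, or 0.0760 on the corrected values), and CDC25C, a further phosphatase gene, was at -0.84 (adjusted p = 0.0590, or 0.0258 on the corrected values). Of 9 translesion and direct reversal genes 1 fell, HLTF, a translocase that remodels stalled forks, at 0.543 ± 0.105 TPM with penfluridol and 3.64 ± 1.79 TPM with DMSO (-1.53, adjusted p = 0.0214), and ALKBH3 did not pass as deposited (0.52, adjusted p = 0.147) but was called higher on the corrected values (0.55, adjusted p = 0.0366). On those values 3 of the 9 were called higher (33.3%), UBE2B, ALKBH3 and POLH, and 1 lower (11.1%), HLTF, beside 10.2% and 8.97% of all genes. The median log2 fold change of the 9 was -0.20 as deposited and 0.16 on the corrected values. Of 19 tested p53 damage targets, 2 of which are the members XPC and DDB2, 7 rose (36.8%) and 1 fell (5.26%), with a median log2 fold change of 0.12, beside 9.75% and 3.48% of all genes. The number called higher was 2 without penfluridol 2, and 4 without penfluridol 1 or DMSO 1, and the one called lower was lost without any of these 3 libraries or penfluridol 3. Without DMSO 3, 8 were higher and 2 lower. CDKN1A, the cell cycle inhibitor p21, rose to 221.8 ± 24.3 TPM with penfluridol, against 78.0 ± 12.3 TPM with DMSO (1.50, adjusted p = 0.00252). SESN2 rose by 1.64 (adjusted p = 0.00227), BBC3 by 1.08 (0.00953), GADD45A by 1.59 (0.0196), GADD45G by 1.72 (0.00731), PLK3 by 1.21 (0.00613) and AEN by 0.74 (0.0291), all log2 fold changes with limma adjusted p-values, and several of these genes are also targets of other stress pathways. TP53I3 fell by 0.72 (adjusted p = 0.0253). Each list was chosen with earlier results of these libraries known, so the counts are no independent evidence of a direction.

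Promoter sequences are shown for the called members that RefSeq's promoter table (GRCh38.p14) holds, to set beside their opposite directions. Of the 46 members 39 were in it. The 250 bases before each annotated start were searched on both strands for CCAAT (the NF-Y motif), for the E2F motifs TTTCCCGC, TTTCGCGC, TTTGCCGC and TTTGGCGC, for the CHR motifs TTTGAA and TTCGAA, and for TGATGNAA, the core of the amino acid response element. Where a gene had several starts, the one with most matches is printed, 5′ to 3′ on the gene's strand, with matches in capitals. The windows are chr12:109097922-109098171 (UNG, plus strand), chr14:20454976-20455225 (APEX1, plus), chr22:41621045-41621294 (XRCC6, plus) and chr19:45423529-45423778 (ERCC1, minus).
UNG: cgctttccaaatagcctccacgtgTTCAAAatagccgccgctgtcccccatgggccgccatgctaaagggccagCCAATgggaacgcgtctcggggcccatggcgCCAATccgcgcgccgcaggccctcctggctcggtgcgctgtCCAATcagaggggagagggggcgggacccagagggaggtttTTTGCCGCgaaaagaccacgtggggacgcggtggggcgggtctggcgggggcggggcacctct
APEX1: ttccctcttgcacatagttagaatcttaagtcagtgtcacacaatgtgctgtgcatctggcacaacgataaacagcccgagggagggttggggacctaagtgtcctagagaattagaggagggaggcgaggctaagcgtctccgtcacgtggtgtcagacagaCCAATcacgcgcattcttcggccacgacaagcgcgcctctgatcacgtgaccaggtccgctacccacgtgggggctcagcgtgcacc
XRCC6: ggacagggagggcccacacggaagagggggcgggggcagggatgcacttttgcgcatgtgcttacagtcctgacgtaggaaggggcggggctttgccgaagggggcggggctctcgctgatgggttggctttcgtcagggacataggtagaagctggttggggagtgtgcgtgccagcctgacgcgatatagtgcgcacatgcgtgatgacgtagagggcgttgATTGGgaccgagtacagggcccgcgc
ERCC1: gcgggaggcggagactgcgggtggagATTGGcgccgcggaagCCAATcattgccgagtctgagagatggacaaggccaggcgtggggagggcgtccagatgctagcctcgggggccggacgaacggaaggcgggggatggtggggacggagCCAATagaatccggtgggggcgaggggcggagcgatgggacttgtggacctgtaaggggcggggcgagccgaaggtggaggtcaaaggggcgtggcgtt
CCAAT was present in all 4 printed windows, which were picked for their matches. Another start of UNG and the other starts of ERCC1 had no CCAAT in their windows, and a gene with more starts has more chances of a match. It was found in 23 of 39 members (59.0%), against 37.0% of the 27305 genes in the table. An E2F motif was found in 4 members (10.3%, against 3.40%), which were UNG, MSH3, PMS2 and XPC, a CHR motif in 5 (12.8%, against 17.2%) and the amino acid response core in 1, NTHL1 (2.56%, against 3.89%). A match is a description of letters, and no binding was measured.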

How the data were processed

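Libraries of 6 Ishikawa samples were prepared from messenger RNA (SMARTER kit, per the labels' protocols). The deposited values are TPM that the authors rounded to 2 decimals; columns summed to 994165 to 997207, and the file header names no unit. Per the submitters' processing notes, fastp, RSEM and GRCh38.p13 were used; no label states their versions, an aligner or an annotation. Samples were grouped by title, 0 columns belonged to other samples, and 1 line of the table had been emptied. Depth is unknown, so precision was taken from the spread of 3 libraries per group.

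Members and gene lists were chosen with earlier results of these data known. The model was penfluridol against DMSO on log2(TPM + 1), whose pseudocount understates changes of low genes, in genes whose mean reached 1 TPM, with limma 3.58.1 (R 4.3.3), moderated variances with a trend, two-sided p-values and Benjamini-Hochberg adjustment over 12201 genes. It was tested on simulated data. The GC and length correction regressed each library's deviations on natural splines (4 degrees of freedom each) of GENCODE 29 transcript GC content and length, medians over a gene's transcripts, in 12112 genes. Libraries of a pair shared 71 to 143 identical values, so each was kept. Named with all libraries were members called as deposited or corrected, and per role the highest mean and the smallest p; per further list, the 2 smallest p; other names were chosen with values in view. Of the genes so picked, 1 is not reported here. Alternatives were another pseudocount, filters, median-of-ratios scaling, the replicate number as a block, no variance trend and leaving out each library.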

Additional observations from a re-analysis of the deposited data

How the results depend on the processing

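Of 36 members tested, the number called higher was 1 and the number called lower 4. With the replicate block 0 were higher and 0 lower, and with the replicate block and the GC and length correction 0 and 1 (XRCC5). No label says whether replicate numbers pair the libraries. Deviations of same-numbered libraries from their group means correlated at -0.00807, -0.00607 and -0.348, and no library correlated best with its own number. Deviations from means of 3 libraries cannot exclude a shared culture or batch, so pairing remains undecided. With median-of-ratios scaling 0 were higher and 5 lower, and without a variance trend 1 and 1. With 1 library left out 0 to 1 were higher and 0 to 11 lower, the 11 without DMSO 3. With the correction and without DMSO 3 together, a setting chosen after seeing the data, 3 were higher (ERCC1, APTX and DDB1) and 8 lower (8.33% and 22.2%, beside 1454 and 1373 of the 12112 genes tested). A pseudocount of 0.1 or a filter of at least 5 TPM in 3 libraries, which left 27 members, ended no call. Over all genes, 1190 higher and 425 lower calls became 62 and 12 with the replicate block, 378 and 246 with the block and the correction, 974 and 285 without a trend, 1231 and 1086 with the correction, 1692 and 2261 without DMSO 3, and 197 to 635 and 40 to 202 without another library. Of the 113 further pathway genes, 11 higher and 6 lower calls became 1 and 0 with the replicate block, and of the p53 targets 7 and 1 became 1 and 0. The members' median log2 fold change of -0.38 was -0.11 after the correction, with or without the replicate block, and -0.64 to -0.20 with 1 library left out. No called member changed sign in any setting, while 11 uncalled ones did after the correction. With 3 libraries per group and unknown depth, levels under 1 TPM are the least certain.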
